A study of Mus musculus with 4 samples.

Results

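Splicing factor genes were examined as a set made up mostly of genes that nearly every cell transcribes, to describe streptavidin ChIP signal at active promoters outside the immune program. The set held all protein-coding RefSeq genes whose symbol starts with Srsf, Hnrnp, Sf3a or Sf3b, 41 of 21887 nuclear protein-coding genes, and the rule uses their names and no measured value. A gene counted as having a peak when the midpoint of a listed peak lay in its body or within 5 kb on either side. Peaks came from 2 ChIP libraries of mouse thymocytes on a C57BL/6 background, 1 per group. The library called PLZF-transgenic here came from animals transgenic for both PLZF and BirA, the bacterial ligase that attaches biotin. The library called NKT came from animals with the same pair of transgenes plus one for Valpha14, the alpha chain that invariant natural killer T cells use in their receptor. The promoters that drive the transgenes, the ages of the mice, any pooling and any sorting of cells are not stated in the labels. Because all mice of both groups carried PLZF and BirA, neither group is a pull-down without the bait, and signal that does not depend on PLZF cannot be told apart from PLZF binding. RNA was not measured, so the activity of these genes in the sampled cells is background knowledge and was not tested.

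SR proteins, encoded by the Srsf genes, bind exonic RNA through an RNA recognition motif and recruit the splicing machinery through a domain rich in arginine and serine. The hnRNPs coat newly made RNA and often act against SR proteins at splice sites. SF3A and SF3B are parts of the U2 small nuclear ribonucleoprotein, which recognises the branch point of the intron. Several of these proteins steer the exon choice of Ptprc (CD45) in T cells, with Hnrnpll and Hnrnpl as the best known examples. PLZF is a zinc finger transcription factor that directs the effector program of natural killer T cells.

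Of the 41 genes, 13 carried a PLZF-transgenic peak, 31.7%, where 13.1% of all protein-coding genes had one. In the NKT library 8 genes had a peak, 19.5%, against 10.8% of all protein-coding genes. The same 8 genes had a peak in both libraries, against 7.59% of all protein-coding genes, and no splicing factor gene had a peak in the NKT library alone. These 8 were Sf3a3, Hnrnpf, Hnrnpul1, Hnrnpl, Srsf1, Srsf5, Srsf7 and Sf3b3. The 5 with PLZF-transgenic peaks and no NKT peak were Hnrnpa1, Hnrnpa2b1, Hnrnpc, Sf3b1 and Srsf10. In all 8 genes the peaks of both libraries overlapped by at least 1 bp, which held for 6.78% of all protein-coding genes. With 1 library per group there is no replicate error, and no difference between the libraries or between gene lists was tested.

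At 3 genes a peak of each library lay over the promoter window, taken as 250 bases before and 50 bases from the start of the RefSeq transcript. They are shown because these are the splicing factor promoters where signal was listed in both populations. The sequences are from RefSeq (GRCm38.p6), 5′ to 3′ on the strand of the gene. Capitals mark letters that match any of 8 short motifs searched on both strands, which are listed with their frequencies further on. The windows are Sf3a3 at chr4:124714611-124714910 (plus strand), Hnrnpf at chr6:117900090-117900389 (plus strand) and Srsf7 at chr17:80207256-80207555 (minus strand).
Sf3a3: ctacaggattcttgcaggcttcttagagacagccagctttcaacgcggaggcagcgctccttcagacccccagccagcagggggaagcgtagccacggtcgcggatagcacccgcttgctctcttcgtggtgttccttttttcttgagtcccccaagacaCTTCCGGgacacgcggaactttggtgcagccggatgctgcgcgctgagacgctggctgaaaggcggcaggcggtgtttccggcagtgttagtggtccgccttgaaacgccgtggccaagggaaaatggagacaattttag
Hnrnpf: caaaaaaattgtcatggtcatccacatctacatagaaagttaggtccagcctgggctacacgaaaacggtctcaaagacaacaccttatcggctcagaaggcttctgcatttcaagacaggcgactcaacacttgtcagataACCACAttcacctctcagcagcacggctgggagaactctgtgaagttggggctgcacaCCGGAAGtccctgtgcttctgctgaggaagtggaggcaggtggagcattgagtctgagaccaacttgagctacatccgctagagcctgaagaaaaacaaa
Srsf7: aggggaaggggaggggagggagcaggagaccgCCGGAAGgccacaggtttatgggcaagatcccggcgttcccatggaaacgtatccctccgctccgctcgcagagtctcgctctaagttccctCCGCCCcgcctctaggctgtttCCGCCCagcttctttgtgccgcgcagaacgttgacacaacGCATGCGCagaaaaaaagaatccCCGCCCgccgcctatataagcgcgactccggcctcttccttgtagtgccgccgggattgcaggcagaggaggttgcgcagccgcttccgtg

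All 3 windows hold the ETS letters CCGGAAG or their complement. These 3 are the only ones with the letters among the 8 splicing factor windows under a peak of either library (37.5%). The letters were in 33.3% of the 42 splicing factor windows under no peak. Among all protein-coding windows under a peak the share was 29.0%. In Sf3a3 the ETS letters begin 90 bases before the start, in Hnrnpf 50 bases and in Srsf7 218 bases before it. The Sf3a3 and Hnrnpf matches lay under the peaks of both libraries. The Srsf7 match lay under the PLZF-transgenic peak and outside the NKT peak, which covered 97 of the 300 bases. Of the other matches in Srsf7, the NRF1 letters GCATGCGC and the 2 GC boxes farther from the start lay under the PLZF-transgenic peak alone, and the GC box 41 bases before the start lay under both. Hnrnpf also holds the RUNX letters TGTGGT on the minus strand, 108 bases before the start and under both peaks.

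Among the spliceosome subunits, 1 of 3 SF3A and 2 of 6 SF3B genes had a PLZF-transgenic peak, and 1 of each an NKT peak. Sf3a3, which encodes a subunit of SF3A, had the highest NKT score of the set. Its peaks, chr4:124714506-124715023 (PLZF-transgenic) and chr4:124714560-124715018 (NKT), had scores of 236 and 244. The score is a value that the authors deposited with each peak and whose unit is not given, so it is read here by rank within a list. As a percentile, the share of a list's peaks with that score or a lower one, the Sf3a3 peaks stood at 80.1 for the PLZF-transgenic library and 91.3 for NKT. The midpoints lay 97 and 72 bp upstream of the start, and both peaks covered all 300 bases of the promoter window. Sf3b1, which encodes the large subunit that clamps the branch point, had a single peak of score 64.3 in the PLZF-transgenic list (chr1:55028825-55029080, rank 4159 of 5198), 1474 bp upstream of its start. The nearest NKT peak was 102.1 kb from the Sf3b1 body.

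Sf3b3 counted among the genes with a peak only through a peak at the edge of its window. This peak had scores of 80.2 and 58.7 (31.4 and 30.5 percentile, PLZF-transgenic first) and a midpoint 4.75 and 4.78 kb beyond the 3′ end of Sf3b3. It lies inside Il34, a cytokine gene, and the nearest listed start, 544 and 518 bp away, is that of the noncoding gene Gm15895. Srsf10 likewise counted only through a peak at the edge, a PLZF-transgenic peak 4.76 kb upstream of its body (score 80.3, 31.4 percentile). Just outside the window lay an NKT peak 6.8 kb from Srsf10 and an NKT peak 7.54 kb from Sf3b5 (scores 80.95 and 54.1). The nearest PLZF-transgenic peak of any gene without one in its window was 13.69 kb away, at Hnrnpa3, with a score of 501. Sf3a1, Sf3a2, Sf3b2, Sf3b4, Sf3b5 and Sf3b6 had no peak in either library.

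Among the SR protein genes, 4 of 11 had a PLZF-transgenic peak and 3 an NKT peak. Srsf1, the archetypal SR protein also known as ASF/SF2, had a peak 265 bp downstream of its start (PLZF-transgenic) and another 316 bp downstream (NKT). Their scores were 139 and 103, at the 60.2 and 66.6 percentile. Srsf7, which encodes the SR protein 9G8, had scores of 91.0 and 66.0 (38.6 and 41.8 percentile), with midpoints 71 bp upstream and 40 bp downstream of the start. Gemin6, a gene of snRNP assembly, lies on the other side of the Srsf7 peaks, with its body 128 and 239 bp away. Srsf5 differed from these in place. Its peaks, with scores of 138 and 94.6 (59.7 and 62.9 percentile), lay 3393 and 3407 bp upstream of the start, outside the promoter window. Srsf2, Srsf3, Srsf4, Srsf6, Srsf9, Srsf11 and Srsf12 had no peak in either library.

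Among the hnRNP genes, 6 of 21 had a PLZF-transgenic peak and 3 an NKT peak. Hnrnpul1, of the family of hnRNP U, held the highest-scoring PLZF-transgenic peak of the set (chr7:25755244-25756292, score 423, 92.9 percentile). It was also the widest, at 1049 bp, and lay 1009 bp upstream of the listed start, inside the annotated body. A second PLZF-transgenic peak, of score 54.5 (8.4 percentile), lay 242 bp upstream of the start and reached into the promoter window. The NKT list had 2 peaks across the same stretch, 456 and 975 bp upstream, with scores of 119.9 and 127 (73.2 and 75.6 percentile). The Hnrnpul1 peaks of both lists thus split the region at different places, and none met a reciprocal overlap of 50%. The 3′ end of Axl, a receptor tyrosine kinase gene, is 732 to 1499 bp from these peaks.

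Hnrnpf, whose product binds runs of G in RNA, had scores of 155 (PLZF-transgenic, 65.2 percentile) and 187 (NKT, 86.4 percentile). The midpoints lay 29 and 83 bp upstream of the nearest of its 4 listed starts. Hnrnpl, which binds CA-rich RNA and regulates Ptprc splicing in T cells, had 3 PLZF-transgenic peaks and 1 NKT peak. The strongest of the 3, of score 139.9 (60.7 percentile), overlapped the NKT peak of score 127 (75.5 percentile). Both lay inside the annotated body but 1423 and 1372 bp upstream of the 1 listed start, because the RefSeq body reaches farther 5′ than that transcript. The other 2, with scores of 57.1 and 69.9, lay just before the body and were in the PLZF-transgenic list alone. Hnrnpll, the T cell regulator of Ptprc splicing, had no peak in either list, and the nearest was 46.6 kb away in both.

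At Hnrnpa1, Hnrnpa2b1 and Hnrnpc only the PLZF-transgenic library listed a peak. Hnrnpa1 encodes an abundant splicing repressor and shares a divergent promoter region with the heterochromatin protein gene Cbx5. Its peak (chr15:103240485-103240824, score 85.25, 34.9 percentile) lay 257 bp downstream of its own start and 802 bp upstream of the Cbx5 start. Hnrnpa2b1 has the same arrangement with Cbx3, and its human counterpart is used in vectors to keep transgenes active. Its peak (chr6:51469743-51470009, score 60.9, 16.5 percentile) lay 18 bp downstream of its nearest start and 740 bp upstream of that of Cbx3. Hnrnpc, whose product binds runs of U, had a peak of score 77.2 (29.7 percentile) 205 bp upstream of its start and 15 bp from the body of Rpgrip1. The nearest NKT peak was 713.5 kb from Hnrnpa1, 1171.3 kb from Hnrnpa2b1 and 64.5 kb from Hnrnpc. The other 15 hnRNP genes had no peak in either list, among them Hnrnpa0, Hnrnpa3, Hnrnpab, Hnrnpd, Hnrnpdl, Hnrnph1, Hnrnph2, Hnrnph3, Hnrnpk, Hnrnpm, Hnrnpr, Hnrnpu and Hnrnpul2. The set by its rule also takes in Hnrnpa1l2-ps2, which the gene table lists as protein-coding despite its name and which had no peak. Processed copies of Hnrnpa1 and other splicing factor genes exist in the genome, and the labels do not say how reads that match several places were handled.

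**Figure D1:**
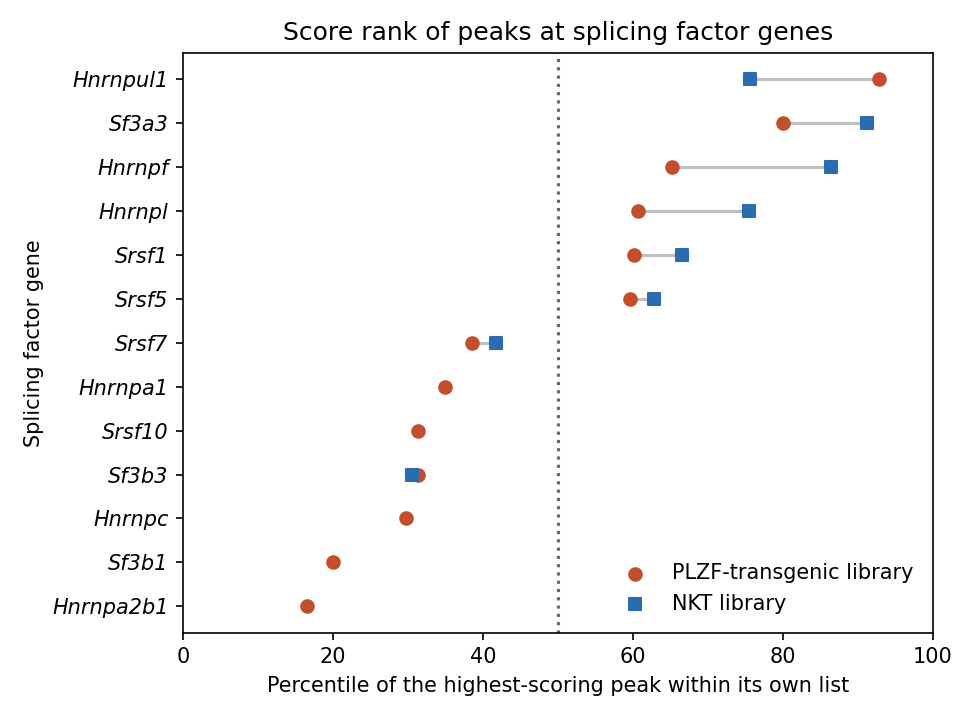
Percentile of the highest-scoring peak within its own list (horizontal axis, 0 to 100) for the 13 splicing factor genes with a peak, circles for the PLZF-transgenic and squares for the NKT library. The dotted line is the median of each list. All 6 genes at or above it in the PLZF-transgenic list also have an NKT peak, from Srsf5 at 59.7 to Hnrnpul1 at 92.9. Of all protein-coding genes at or above it, 76.1% also have an NKT peak. The split at the median was made after the values were seen.

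Of the 13 genes with a PLZF-transgenic peak, 7 had their best peak below the list median, 53.8% beside 46.4% of all protein-coding genes with a peak. The median percentile of the best peak per gene was 38.6 over the 13 genes, beside 53.7 over all 2874 protein-coding genes with a peak. Hnrnpul1 was in the top 10% of the list, 1 of 13 or 7.69%, beside 11.2% of all. In the NKT list the median was 71.0 over 8 genes, beside 55.1 over all 2372, and Sf3a3 was in the top 10%, 1 of 8 or 12.5%, beside 10.9% of all. With peaks of the upper 50% of each list by score, 6 splicing factor genes had one in each library. That was 14.6%, beside 7.03% (PLZF-transgenic) and 5.94% (NKT) of all protein-coding genes. They were the same 6 genes, Hnrnpf, Hnrnpl, Hnrnpul1, Sf3a3, Srsf1 and Srsf5. A split at the list median, made after the values were seen, put 6 genes at or above it in the PLZF-transgenic list, of which 6 had an NKT peak, and 7 below it, of which 2 had one. Over all protein-coding genes the corresponding shares were 76.1% and 36.7%.

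**Figure D2:**
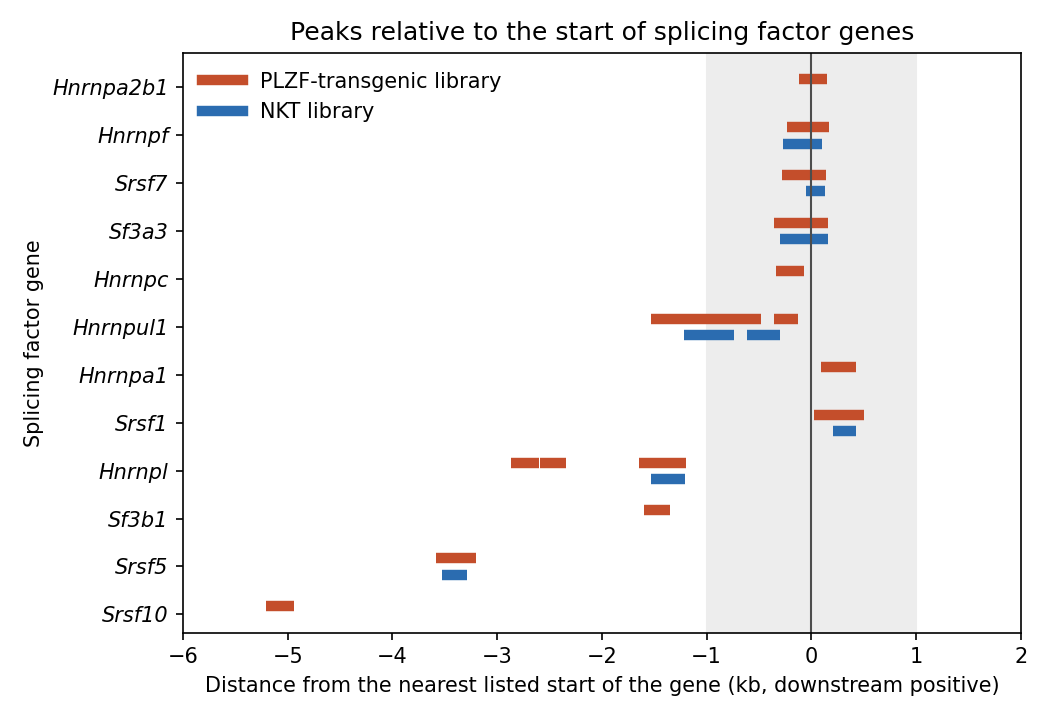
Peaks drawn to scale as bars against the distance from the nearest listed start of the gene (kb, downstream positive), for 12 splicing factor genes. The shaded band is 1 kb on either side of the start. Sf3b3 is left out because its peaks lie over 40 kb from its start. Peaks of 8 genes have their midpoint in the band.

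The rule did not use the position within the window, and many peaks lay close to the start of the gene. Of the 16 PLZF-transgenic peaks in these windows, 8 had their midpoint within 1 kb of a listed start of the gene, and the median distance was 637 bp. Over the 3454 pairs of a peak and a protein-coding gene with a listed start, 24.1% were within 1 kb and the median distance was 7833 bp. Of the 9 NKT peaks, 6 were within 1 kb, 66.7%, with a median of 456 bp, beside 25.7% and 7921 bp over 2669 such pairs. The median body of splicing factor genes was 11.3 kb (0.734 to 42.3 kb), beside 17.2 kb for all. Over genes within that length range, a background added after the data were seen, 36.1% of 1674 PLZF-transgenic pairs were within 1 kb, with a median of 2658 bp, and 38.7% of 1365 NKT pairs, with a median of 2625 bp. Counted by gene, 8 of 41 had a PLZF-transgenic peak within 1 kb of the start, 19.5%, beside 4.39% of all protein-coding genes. For the NKT library the count was 5 of 41, 12.2%, beside 3.54%. In the gene lists compared further on, the shares were 23.5% and 16% for ribosomal protein genes (PLZF-transgenic first). Other core spliceosome genes stood at 18.2% and 21.2%, and other splicing regulators at 6.12% in both. T cell receptor signalling genes stood at 56.2% and 46.9%. Splicing factor genes thus did not have the highest share in either library, and these differences were not tested. Genes without a listed start were counted at either boundary of the body, and the lists differ in this. A listed start existed for 37 of 41 splicing factor genes, 61 of 81 ribosomal protein genes and 50 of 66 other core spliceosome genes. It existed for 39 of 49 other splicing regulators and 24 of 32 T cell receptor signalling genes. Peaks over the promoter window itself were listed at 7 of the 37 genes with a window in the PLZF-transgenic library and at 3 in the NKT library. The corresponding shares of all protein-coding genes with a window were 3.28% and 2.42%, and 1.44% in both. The 7 were Hnrnpa2b1, Hnrnpc, Hnrnpf, Hnrnpul1, Sf3a3, Srsf1 and Srsf7. Among the other lists, 11 of 61 ribosomal protein genes with a window had a PLZF-transgenic peak over it and 9 an NKT peak. The counts were 9 and 9 of 50 other core spliceosome genes and 2 and 2 of 39 other splicing regulators. For T cell receptor signalling genes they were 13 and 10 of 24. Of the 16 PLZF-transgenic peaks, 9 had their midpoint upstream of the body, 6 inside it and 1 downstream. Of the 9 NKT peaks, 3 were upstream, 5 inside and 1 downstream.

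The background share differed with body length. Among the 15824 protein-coding genes whose body is as long as that of a splicing factor gene, 10.3% had a PLZF-transgenic peak, 8.40% an NKT peak and 5.54% both. Under 20 kb, 8 of 27 splicing factor genes (29.6%) and 8.62% of all genes had a PLZF-transgenic peak, and 5 of 27 (18.5%) and 6.96% an NKT peak. At 20 kb or more, 5 of 14 (35.7%) and 18.5% had a PLZF-transgenic peak, and 3 of 14 (21.4%) and 15.4% an NKT peak.

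**Figure D3:**
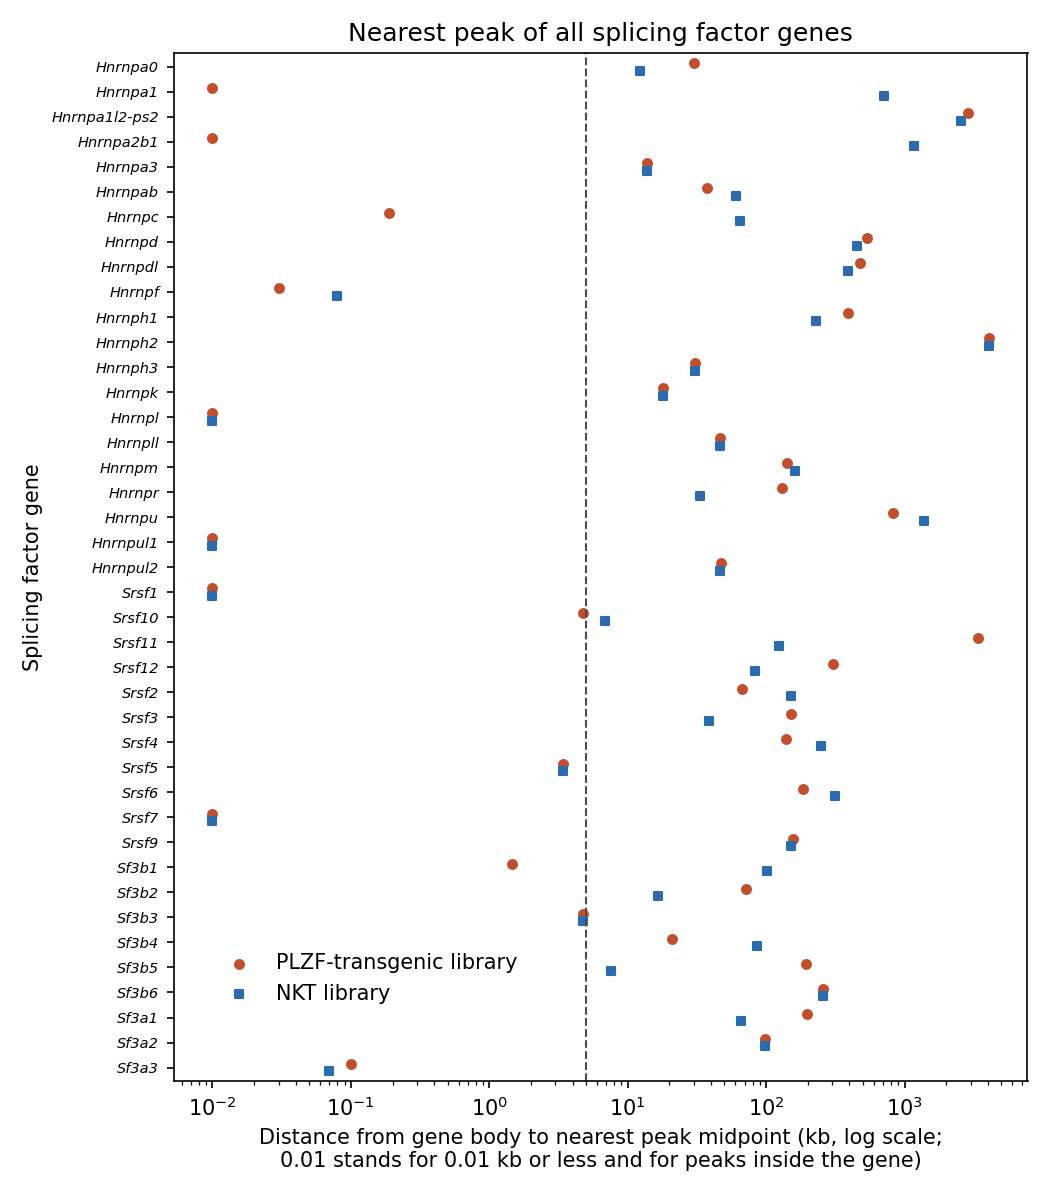
Distance from the gene body to the nearest peak midpoint (kb, log scale, peaks inside the gene drawn at 0.01) for all 41 splicing factor genes, circles for the PLZF-transgenic and squares for the NKT library. The dashed line is the 5 kb limit. The 28 genes without a peak in either library lie to its right. No distances of all protein-coding genes were computed to set beside them.

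For the 28 genes with no peak in either library, distances to the nearest peak are given without a background. The same distances were not computed for all protein-coding genes. The nearest PLZF-transgenic peak of the 28 genes was 13.69 to 4051.8 kb from the body, with a median of 145.9 kb, and 2 of the 28 had one within 20 kb. In the NKT list the 33 genes without a peak had a median distance of 97.9 kb, and 6 of them had a peak within 20 kb. Hnrnpa3 and Hnrnpk had peaks of both libraries between 13.69 and 17.96 kb away, with PLZF-transgenic scores of 501 and 301.

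**Figure D4:**
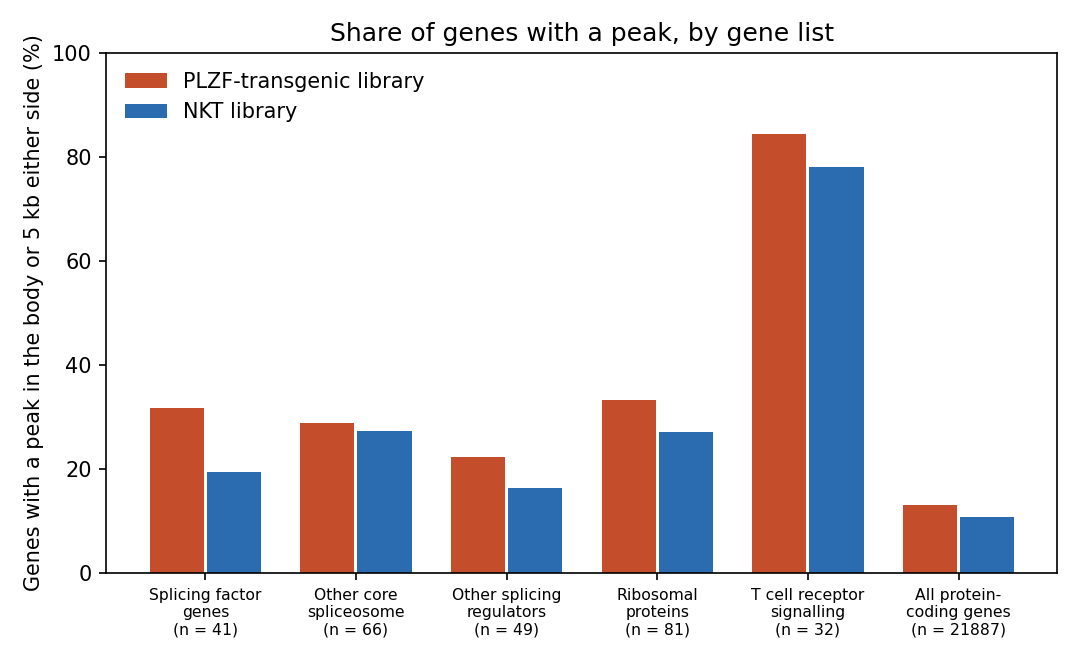
Percentage of genes with a peak in the body or within 5 kb on either side (bars from 0, 1 library each, so without error bars), by gene list and library. Splicing factor genes, at 31.7% and 19.5%, stand nearer to the ribosomal protein and other spliceosome lists than to T cell receptor signalling genes, at 84.4% and 78.1%. The lists were chosen with earlier results of these data known, and differences between them were not tested.

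Other genes of the splicing pathway and a second housekeeping family were counted the same way. Of 66 other core spliceosome genes, 19 had a PLZF-transgenic peak (28.8%) and 18 an NKT peak (27.3%), 11 of them both. Snrpd3, an Sm ring protein, had scores of 235 and 239 (PLZF-transgenic first), and Snrnp70, the U1 protein of 5′ splice sites, had 273 and 155. Snrpg, also of the Sm ring, had 156 and 137, and Snrnp200, the helicase that unwinds U4 from U6, 301 and 132. Of 49 other splicing regulators, 11 had a PLZF-transgenic peak (22.4%), 8 an NKT peak (16.3%) and 5 both. Mbnl1, a muscleblind RNA-binding protein, had 230.3 and 367, Clk3, a kinase of SR proteins, 708 and 208, Rbm25 299 and 114, and Celf2 159.6 and 74.9. Of 81 ribosomal protein genes, 27 (33.3%) and 22 (27.2%) had a peak, 15 of them in both. Rps14 had scores of 249.9 and 233, Rpl3 441 and 215, Rpl27 181 and 187, and Rps26 289.5 and 175.

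Of 32 genes of T cell receptor signalling, 27 (84.4%) and 25 (78.1%) had a peak, 24 of them in both. Cd4 had scores of 2245 and 1158, Cd8b1 668 and 707, Cd3d 1043 and 505, and Ptprc 844 and 469. The median percentile of the best peak was 85.0 and 77.9 for these genes, beside 38.6 (13 genes) and 71.0 (8 genes) for splicing factor genes. The 5 splicing factor genes with a PLZF-transgenic peak alone count in the first of these medians only. Ribosomal protein genes stood at 42.9 and 43.2, other core spliceosome genes at 43.8 and 56.1 and other splicing regulators at 34.0 and 39.7. In the top 10% of the list were 11 of 27 T cell receptor signalling genes with a PLZF-transgenic peak and 9 of 25 with an NKT peak, beside 1 of 13 and 1 of 8 splicing factor genes and 11.2% and 10.9% of all protein-coding genes with a peak. The lists share both libraries and differ in gene length and in how they were chosen. They were chosen with earlier results of these data known, so the contrast between them is not independent of these data. The differences between the lists were not tested.

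**Figure D5:**
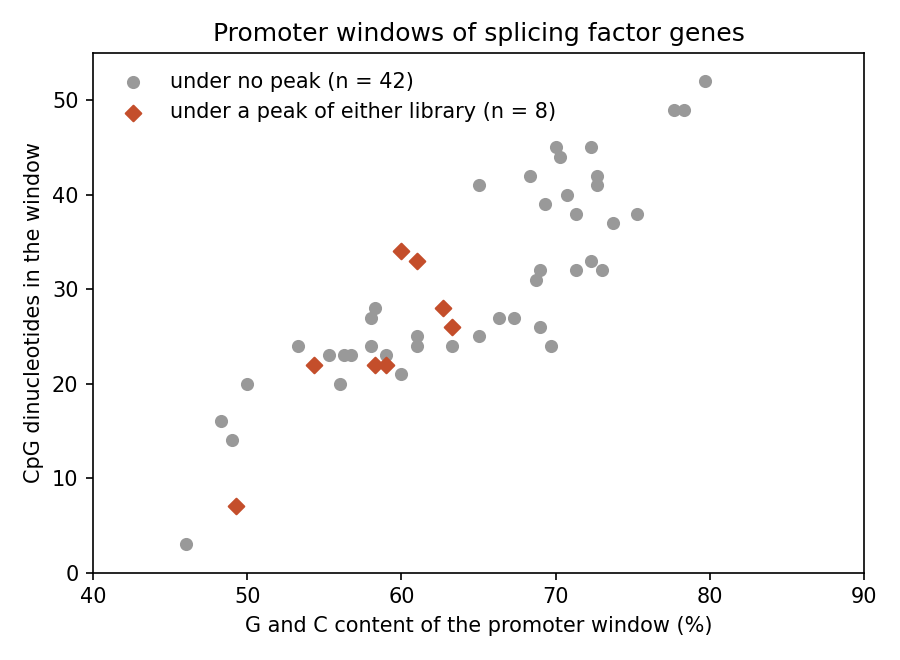
G and C content (%) against the number of CpG dinucleotides in 50 promoter windows of 300 bases of splicing factor genes. Diamonds are the 8 windows under a peak of either library, between 49.3 and 63.3% G and C, and circles the 42 windows under no peak.

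Promoter windows of splicing factor genes were rich in G, C and CpG, and those under a peak were not the richest. RefSeq gave 50 windows for 37 of the 41 genes. Their median G and C content was 64.2% with 27 CpG, beside 56.3% and 13 CpG over 21263 windows of all protein-coding genes, and 56.7% and 18 CpG over the 817 of these under a peak of either library. The 8 windows under a peak, 2 of which overlap at Hnrnpa2b1, had a median of 59.5% (49.3 to 63.3%) and 24 CpG. The 42 windows under no peak had a median of 67.8% (46.0 to 79.7%) and 27.5 CpG. Hnrnpf had the lowest of the 8, with 49.3% and 7 CpG, beside 59.0% and 22 CpG in Sf3a3 and 62.7% and 28 CpG in Srsf7. The other listed windows of Hnrnpf, with 69.7 to 73.7% and 24 to 37 CpG, lay under no peak.

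The 8 motifs were searched as exact letters on both strands. Windows and not genes were counted, so a gene with several listed starts counts more than once. The 42 splicing factor windows under no peak came from 31 genes. Each count below is given for the 8 splicing factor windows under a peak and the 42 under none, then as the share of all 21263 protein-coding windows and of the 817 under a peak. The ETS letters CCGGAAG were in 3 of 8 and 14 of 42 (33.3%), beside 11.6% and 29.0%. The GC box GGGCGG was in 3 of 8 and 35 of 42 (83.3%), beside 46.2% and 44.9%. The NF-Y letters CCAAT were in 5 of 8 and 20 of 42, beside 38.2% of all and 294 of the 817. The RUNX letters TGTGGT were in 1 of 8 and 3 of 42, beside 3183 of all windows and 16.2%. The NRF1 letters GCATGCGC were in 1 of 8 and 2 of 42, beside 3.52% and 6.36%. The CRE letters TGACGTCA were in none of the 50 windows, beside 2.23% and 2.94%. The E-box CACGTG was in 0 of 8 and 5 of 42, beside 7.84% and 9.30%, and the TATA letters TATAAA in 0 of 8 and 6 of 42, beside 12.6% and 7.34%. None of these motifs contains another, but matches may overlap on the sequence. A match is a description of the letters and not a binding site.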

How the data were processed

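PLZF-DNA complexes had been pulled down on streptavidin beads from thymocyte nuclei, and 1 peak list per ChIP library was used. Input libraries were not analysed here. Lists have 5 columns and no header, and the last column holds the score deposited by the authors, whose unit is unknown, as is the depth. Scores were therefore ranked within a list. Peak names begin with MACS. The submitters' processing notes name Bowtie, Picard, HOMER and build mm10. Tool versions and the control for peak calling were not given in the sources used here. Coordinates are 1-based. Gene spans and promoter windows came from RefSeq GRCm38.p6, the assembly of mm10. A listed start exists for 17492 of 21887 genes. For the other genes, the count within 1 kb used either boundary. A percentile is the share of a list's peaks with that score or a lower one.

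All splicing factor genes with a peak are named, and up to 4 genes of each other list with peaks in both libraries, by highest NKT score. Members and lists were chosen with earlier results of these data known. The counting was tested on simulated peaks. Python 3.11.15, pandas 2.3.3 and scipy 1.17.1 were used.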

Additional observations from a re-analysis of the deposited data

How the results depend on the processing

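No paired analysis was possible because each group had 1 library. Of 13 splicing factor genes with a PLZF-transgenic peak, 5 were left with the gene body alone, 6 with the top 50% by score, 1 with the top 1000 peaks, 8 with shared peaks only and 8 within 1 kb of the start. All protein-coding genes then stood at 8.37%, 7.03%, 2.81%, 6.78% and 4.39%. These and the later all-gene shares with a peak are out of 21887 genes. The counts set beside them are to be read out of all 41 splicing factor genes. Of 8 genes with an NKT peak, 4 were left with the gene body alone, 2 with the top 1000 peaks and 5 within 1 kb of the start, beside 7.18%, 2.84% and 3.54%. Of 8 genes in both, 3, 0 and 5 were left under these settings, beside 4.88%, 1.90% and 2.06%. With the top 1000 peaks, 1 of 41 (PLZF-transgenic) and 0 of 41 (both) were thus not above the all-gene shares of 2.81% and 1.90%. For NKT the count was 2 of 41, beside 2.84%. A reciprocal overlap of 50% left 5 of the 8 genes with overlapping peaks, which is 5 of 41 beside 4.71% of all protein-coding genes. For the PLZF-transgenic library, NKT and both, windows of 10 kb gave 13, 10 and 9 genes, beside 15.6%, 13.0% and 9.21% of all. Any overlap with the window gave 13, 8 and 8, beside 13.2%, 10.9% and 7.64%. Peaks counted for their nearest protein-coding gene gave 11, 7 and 7, beside 11.0%, 9.12% and 6.28%. The background share fell from 13.1%, 10.8% and 7.59% (PLZF-transgenic, NKT and both) to 10.3%, 8.40% and 5.54% in genes of the members' length range. It was 8.62%, 6.96% and 4.49% under 20 kb and 18.5%, 15.4% and 11.2% at 20 kb or more. The all-gene share of peaks within 1 kb of the start went from 24.1% and 25.7% to 36.1% and 38.7% in that length range. Depth is unknown, so a gene without a listed peak had none past the authors' threshold at this depth.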
